A study of Mus musculus with 4 samples.

Results

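The Oas1 gene cluster of mouse chromosome 5 was examined in germinal vesicle (GV) stage oocytes, the stage of arrest in meiotic prophase. The members were 7 of the 53677 gene symbols counted in each library, taken by name: Oas1a, Oas1c, Oas1d, Oas1e, Oas1f, Oas1g and Oas1h. There were 2 groups, Ctrl (control) and Ell3 KD, in which Ell3 was knocked down, a gene for an RNA polymerase II elongation factor, with 2 libraries in each. Oocytes of both groups came from females given 7.5 IU of PMSG, which stimulates follicle growth, 48 h earlier. Each library pooled 5 oocytes and was built with Smart-seq2, which copies whole polyadenylated transcripts from a few cells. The sources used here do not give the mouse strain and age, the way the knockdown was made, or whether replicate libraries stem from different females. The p-values below therefore measure only how far these libraries differ, and part of that may be technical.

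Oligoadenylate synthetases (OAS) bind double-stranded RNA and join ATP into short oligoadenylates, messenger molecules of the antiviral response. In mice a single ancestral Oas1 gene has been duplicated many times in tandem. Oas1a and Oas1g are the copies known to make oligoadenylates and to be induced by interferon in many tissues. Oas1d is known from oocytes and early embryos, lacks synthetase activity, and its loss lowers the fertility of female mice.

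The members lie within 135.4 kb of GRCm38 (the assembly that mm10 names), from 120786226 to 120921652 on chromosome 5. In this order along the chromosome they are Oas1e, Oas1c, Oas1f, Oas1h, Oas1g, Oas1a and Oas1d. Oas1b, an annotated polymorphic pseudogene, sits between Oas1c and Oas1f. Oas1e, Oas1c, Oas1g and Oas1a are on the minus strand and Oas1f, Oas1h and Oas1d on the plus strand. Oas1e spans 120786226 to 120795530, Oas1c 120800194 to 120812514 and Oas1d 120914536 to 120921652. Oas1f spans 120847367 to 120857986, Oas1h 120861421 to 120873506, Oas1g 120876142 to 120887613 and Oas1a 120896256 to 120907521. Each has 6 or 7 exons in its longest annotated transcript, and coding sequences run from 1068 bases in Oas1e to 1107 in Oas1h.

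The copies are similar enough that read assignment matters. Over the 21 pairs of members, identity of aligned coding bases ran from 73.5% to 96.7%, with a median of 78.3%. The closest pair was Oas1a and Oas1g at 96.7%, followed by Oas1d and Oas1e at 90.9%. The first 60 coding bases of 6 members, from GENCODE M21 transcripts, show both relations; capitals mark bases that differ from Oas1e, and Oas1h is left out because its start does not align base for base.
Oas1e: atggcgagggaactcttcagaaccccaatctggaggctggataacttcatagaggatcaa
Oas1d: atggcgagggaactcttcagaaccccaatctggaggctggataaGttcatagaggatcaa
Oas1c: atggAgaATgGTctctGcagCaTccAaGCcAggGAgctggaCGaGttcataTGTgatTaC
Oas1f: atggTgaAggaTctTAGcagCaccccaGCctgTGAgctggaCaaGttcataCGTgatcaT
Oas1g: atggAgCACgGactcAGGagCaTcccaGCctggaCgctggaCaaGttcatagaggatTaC
Oas1a: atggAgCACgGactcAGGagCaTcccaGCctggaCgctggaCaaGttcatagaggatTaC
Oas1d differed from Oas1e at 1 of these 60 bases, Oas1c at 22, Oas1f at 18, and Oas1g and Oas1a at the same 17.

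**Figure D1:**
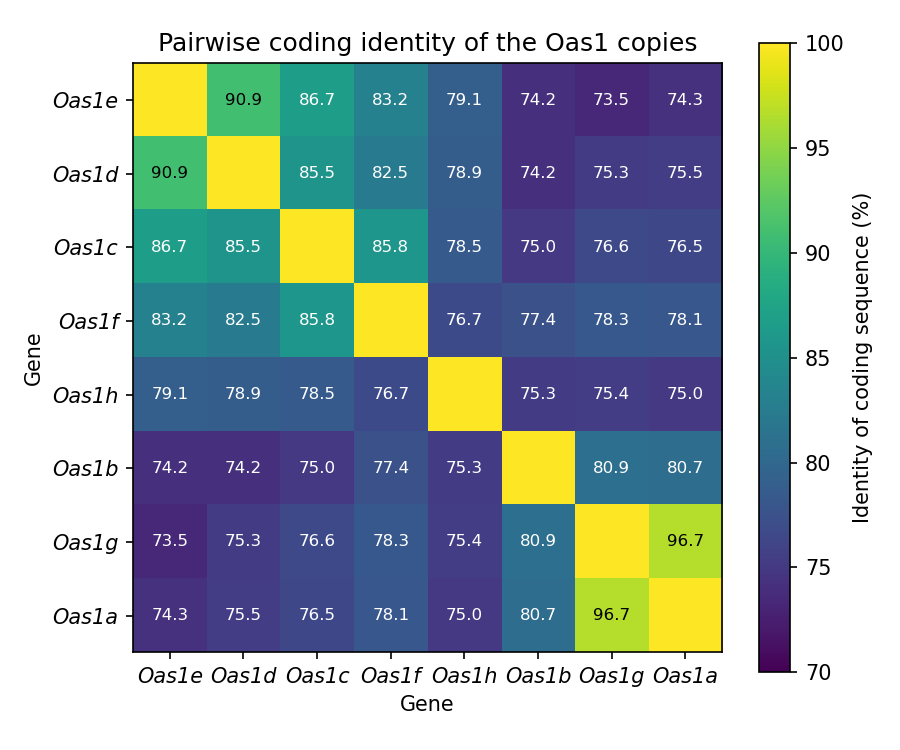
Identity of aligned coding bases, in percent, for each pair of Oas1 copies, with Oas1b added for reference. Oas1a and Oas1g stand out at 96.7%, and Oas1c, Oas1d, Oas1e and Oas1f form a block between 82.5% and 90.9%.

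Reads were 150 bases long, so each member's longest transcript was also compared, in every window of 150 bases, with the transcripts of all other genes. None of the 150-base windows of Oas1d, Oas1e, Oas1f or Oas1h recurred in another gene's transcript. Of the windows of Oas1a, 32.4% recurred in Oas1g, and 30.1% of those of Oas1g recurred in Oas1a. Oas1c shared 2.24% of its windows with Gm43069, an antisense transcript whose exons overlap 9.44% of its exon length. Gm43069 itself had 8, 2, 2 and 1 counts. With windows of 50 bases the shared parts rose to 57.6% in Oas1a, 54.7% in Oas1g, 16.3% in Oas1c, 11.3% in Oas1e, 6.24% in Oas1d, 2.94% in Oas1f and 0.484% in Oas1h. The sources used here do not say how the authors' counting treated strand or reads that fit several places. The counts of Oas1a and Oas1g are therefore uncertain as separate values, and those of the other 5 members less so.

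The bases before the annotated starts are shown next, so that scarce and abundant copies can be compared. RefSeq promoter windows (GRCm38.p6) matched 5 of the 7 members, namely Oas1a, Oas1c, Oas1f, Oas1g and Oas1h. Oas1e and Oas1d, the most abundant members by level per length (ranks 22 and 40, below), had no window. Among the abundant copies only Oas1c and Oas1h can therefore be compared here. The lines give the 120 bases before each RefSeq start, read 5′ to 3′ toward the gene. In Oas1a and Oas1h this start differs by a few bases from the GENCODE span given above. Capitals mark matches, on either strand, to the core of the interferon-stimulated response element, searched as GAAA, any 2 bases, GAAA.
Oas1a, minus strand, chr5:120907526-120907645: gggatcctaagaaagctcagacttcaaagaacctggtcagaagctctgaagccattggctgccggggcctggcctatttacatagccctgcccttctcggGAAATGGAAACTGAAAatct
Oas1g, minus strand, chr5:120887614-120887733: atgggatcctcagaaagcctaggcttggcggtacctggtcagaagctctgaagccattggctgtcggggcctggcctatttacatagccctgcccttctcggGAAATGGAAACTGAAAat
Oas1c, minus strand, chr5:120812515-120812634: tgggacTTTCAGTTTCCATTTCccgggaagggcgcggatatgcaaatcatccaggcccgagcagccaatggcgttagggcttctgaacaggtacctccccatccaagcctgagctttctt
Oas1h, plus strand, chr5:120861302-120861421: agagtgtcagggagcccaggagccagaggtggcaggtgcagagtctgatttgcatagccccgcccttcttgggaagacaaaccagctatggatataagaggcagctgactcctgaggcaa
Oas1f, plus strand, chr5:120847247-120847366: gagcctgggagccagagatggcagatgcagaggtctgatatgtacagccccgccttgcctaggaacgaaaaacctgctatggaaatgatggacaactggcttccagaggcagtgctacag

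In Oas1a, Oas1g and Oas1c the capitals hold 2 overlapping matches, the same 16 bases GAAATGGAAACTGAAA in each. They lie at bases -20 to -5 from the RefSeq start in Oas1a and at -18 to -3 in Oas1g. In Oas1c they lie farther off, at -114 to -99, and on the other strand. Oas1c and Oas1b are head to head with 120 bases between their GENCODE starts. Counted from that start of Oas1b, the same letters lie at -22 to -7, pointing toward Oas1b. Over windows of 250 bases before to 50 after the start, 3.44% of 32851 held this core, and 0.116% held the overlapping pair (GAAA 3 times with 2 free bases between). No match was found in the windows of Oas1f and Oas1h. The NOBOX letters TAATTG were found in none of the 5 windows (8% of all windows held them). The E-box letters CANNTG, which read the same on both strands, were found in Oas1f and Oas1h (72.3% of all windows). Over the whole windows, Oas1a and Oas1g were 88.8% identical, Oas1f and Oas1h 81.7%, and the other 8 pairs between 59.2% and 68.8%. A letter match is a description and not a shown binding site.

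Library totals were 45131278 and 48669267 counts for the Ctrl pair, against 89632815 and 65722415 for Ell3 KD, without overlap. Depth and group cannot be told apart. Levels are given as CPM, the usual depth-scaled counts, with TMM library factors, and compared between genes as CPM per kb of the longest transcript. The limit that a count of 0 allows (3 counts) was 0.0665 CPM for the shallowest library and 0.0335 CPM for the deepest. It covers counting error only, because PCR copies carry no molecular identifiers here. The targeted gene Ell3 went from 8.95 ± 1.18 to 2.84 ± 0.0558 CPM (SD, n = 2 per group here and below). The summed level of 14 oocyte markers lay between 23448 and 24452 CPM, with 3 of the 14 called higher and 5 lower. The largest parts came from Zp3 and Zp1, with Ctrl means of 7425 and 4208 CPM, so the sum can hide shifts of single markers. Among those called higher were Dppa3 (1060 ± 25.2 to 1486 ± 8.37 CPM) and Oosp1 (223 ± 6.08 to 306 ± 8.71 CPM). Zp1 was among those called lower, at 3880 ± 50.3 CPM in Ell3 KD. The summed level of 13 granulosa and cumulus cell markers lay between 51.1 and 56.6 CPM, with 2 of 9 tested called higher and 1 lower. Most of that sum came from Nr5a2 and Cyp19a1, with Ctrl means of 26.4 and 18.0 CPM, so it says little about the scarcer markers. Those called higher were Ptgs2 (0.185 ± 0.168 to 1.32 ± 0.152 CPM) and Inha (1.04 ± 0.137 to 2.33 ± 0.209 CPM). Nr5a2 was the one called lower, at 22.4 CPM in Ell3 KD. Whether the groups held equal amounts of such cells was not tested.

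Of the 7 genes, 4 ranked among the most abundant transcripts of these oocytes, Oas1f was moderately expressed, and Oas1g and Oas1a were scarce. By mean level per length over the 4 libraries, Oas1e was at rank 22, Oas1d at 40, Oas1c at 56 and Oas1h at 57 of 17308 genes tested that had a length. Oas1f was at rank 1041, Oas1g at 11496 and Oas1a at 15979. Oas1e, Oas1d, Oas1c and Oas1h together made up between 98.36% and 98.44% of the counts of the cluster in each library. The cluster as a whole took 0.822% and 0.793% of the Ctrl libraries' counts and 0.793% and 0.782% of those of Ell3 KD.

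**Figure D2:**
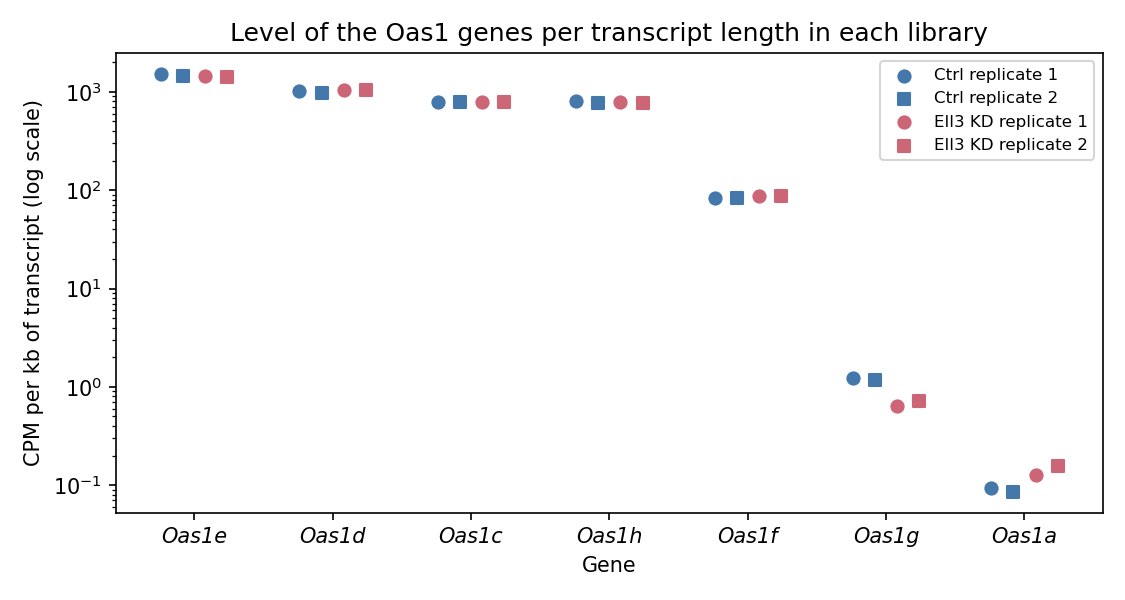
Level of each Oas1 gene in CPM per kb of its longest transcript (log axis), with 1 point per library, circles for replicate 1 and squares for replicate 2. Oas1e, Oas1d, Oas1c and Oas1h lie between 772 and 1522, Oas1f between 83.0 and 87.4, Oas1g between 0.634 and 1.24 and Oas1a between 0.0860 and 0.156.

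Oas1e was the highest at 1522 and 1463 CPM per kb in Ctrl and 1454 and 1430 in Ell3 KD. Oas1d followed at 1021 and 964 in Ctrl and 1050 and 1043 in Ell3 KD, below Oas1e in every library. Oas1c had 795 and 786 CPM per kb in Ctrl and 792 and 792 in Ell3 KD, and Oas1h 803 and 772 in Ctrl and 784 and 776 in Ell3 KD. Oas1c and Oas1h overlapped and do not differ beyond their spread, while every other neighbour in the order was separated in all 4 libraries. Oas1f was at 84.0 and 83.0 CPM per kb in Ctrl, Oas1g at 1.24 and 1.17, and Oas1a at 0.0929 and 0.0860. These orders rest on annotated lengths; with the union of all exons as length Oas1c came to 754 and Oas1g to 0.793 CPM per kb, means of 4 libraries, which left the order of the means with Oas1h above Oas1c.

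**Figure D3:**
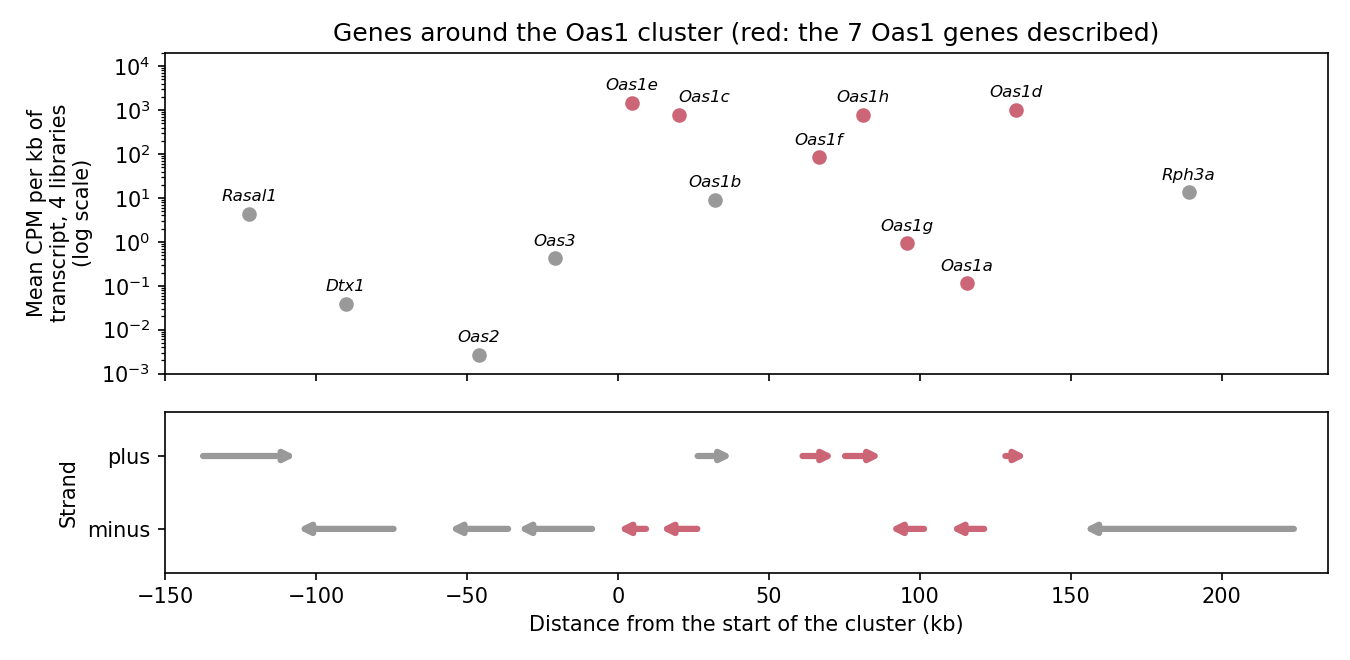
Upper panel, mean level over the 4 libraries in CPM per kb (log axis) of the Oas1 genes (red) and of named genes within 150 kb (grey), at their distance from the start of the cluster. Lower panel, the same genes by strand as arrows; predicted genes are left out, and the abundant Oas1e, Oas1c, Oas1h and Oas1d lie on both sides of the scarce Oas1g and Oas1a.

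The scarce members lay next to each other on the chromosome, with abundant members on both sides. Oas1g and Oas1a, the pair that is 96.7% identical, lie between Oas1h and Oas1d, both abundant. The other genes within the cluster's span or 150 kb of it were lower than the abundant members: Rph3a, for a synaptic vesicle protein, was at 13.6 CPM per kb and Rasal1, for a Ras GTPase-activating protein, at 4.31. Of 12 such genes in the files, Oas1b, Oas2 and Oas3 included, 5 were tested, and 1 rose (Oas1b) and 2 fell (Oas3, and Dtx1 at 13 and 11 counts in Ctrl against 1 and 7). The log2 fold change was 0.04 for Rph3a and 0.04 for Rasal1, neither called (edgeR adjusted p = 0.537 and adjusted p = 0.755).

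In Ell3 KD the abundant members stayed close to their Ctrl levels. Of the 7 members, all of which passed the low-count filter, 1 rose (Oas1d, by 5.42%), 1 fell (the scarce Oas1g, 1.79-fold) and 5 did not pass the test (edgeR quasi-likelihood test, adjusted p under 0.05). Among all 17879 genes tested the share called was 42.9%, with 21.1% higher and 21.8% lower. The median log2 fold change of the members was 0.0034, beside -0.0024 over all genes tested. The groups did not overlap for 5 of the 7 members, against 70.7% of all genes tested. Of the 5 members at 100 CPM or more, 1 was called, against 61.3% of the 2288 genes at that level. Nothing about the members as a group is read from these counts.

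Oas1d had 2064 and 1948 CPM in Ctrl and 2122 and 2108 CPM in Ell3 KD. Both Ell3 KD libraries were above both Ctrl libraries. This came to 0.08 ± 0.03 in log2 (SE here and below; edgeR adjusted p = 0.0285). The difference of 108.6 CPM between the group means was smaller than the gap of 115.8 CPM between the Ctrl libraries. Without Ctrl replicate 2 the log2 fold change was 0.03 and not called (edgeR adjusted p = 0.404), and without Ell3 KD replicate 1 it was 0.07 and not called (edgeR adjusted p = 0.0843).

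Oas1e, the closest copy of Oas1d by coding sequence, had 2741 and 2635 CPM in Ctrl and 2618 and 2576 CPM in Ell3 KD. Both Ell3 KD libraries were below both Ctrl libraries. Its log2 fold change of -0.05 ± 0.03 was not called (edgeR adjusted p = 0.130), though it was without Ctrl replicate 2 (-0.08, edgeR adjusted p = 0.0146). Within libraries, Oas1d had 0.753 and 0.740 counts per count of Oas1e in Ctrl and 0.810 and 0.818 in Ell3 KD. The ratio was higher in both Ell3 KD libraries, a difference that was not tested.

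Oas1c, at 1822 and 1800 CPM in Ctrl and 1815 and 1815 CPM in Ell3 KD, had a log2 fold change of 0.0034 ± 0.03, not called (edgeR adjusted p = 0.930). Oas1h, at 1367 and 1314 CPM in Ctrl and 1335 and 1321 CPM in Ell3 KD, had one of -0.01 ± 0.03 (edgeR adjusted p = 0.733). For both genes the Ell3 KD libraries lay between the Ctrl libraries. Oas1f had 124 and 123 CPM in Ctrl and 129 and 129 CPM in Ell3 KD, higher in both Ell3 KD libraries, and its log2 fold change of 0.06 ± 0.04 was not called (edgeR adjusted p = 0.178). The 95% intervals of the 5 members at 100 CPM or more together ran from a change of -6.88% to one of 10.1%. For comparison, the median absolute log2 fold change over the 2288 genes at 100 CPM or more was 0.12, and 790 of them had one no larger than that of Oas1d. As levels within a library are relative, the mRNA content of an oocyte was not measured.

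**Figure D4:**
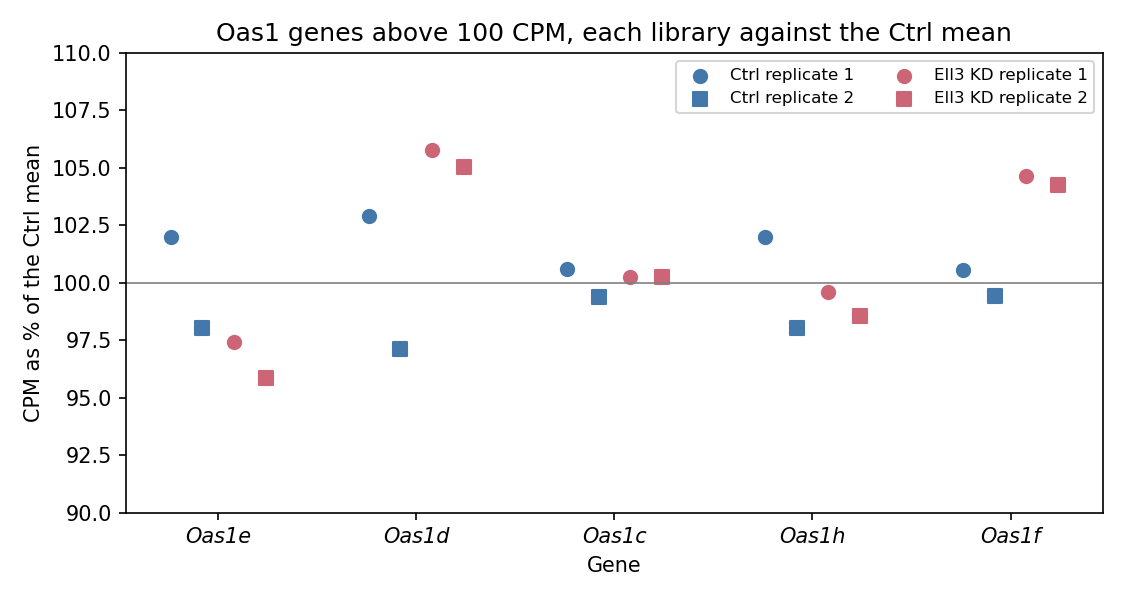
Level of the 5 Oas1 genes at 100 CPM or more in each library, as a percentage of the Ctrl mean (the axis runs from 90 to 110). Blue points are Ctrl and red points Ell3 KD; both Ell3 KD libraries are above both Ctrl libraries for Oas1d and Oas1f, below for Oas1e, and between them for Oas1c and Oas1h.

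The scarce pair showed the largest fold changes and the widest intervals. The counts of Oas1g were 112 and 114 in Ctrl, and 111 and 91 in the deeper Ell3 KD libraries, that is 2.45 and 2.31 against 1.25 and 1.41 CPM. Both Ell3 KD libraries were below both Ctrl libraries. The fall was called, with a log2 change of -0.84 ± 0.23 (edgeR adjusted p = 0.00419), with a 95% interval from -1.31 to -0.37. With an assumed coefficient of variation of 0.2 between libraries Oas1g was not called (edgeR adjusted p = 0.0741).

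The counts of Oas1a were 8 and 8 in Ctrl, and 21 and 19 in Ell3 KD, that is 0.175 and 0.162 against 0.237 and 0.294 CPM. Its log2 fold change of 0.64 ± 0.62 was not called (edgeR adjusted p = 0.427), and its interval from -0.63 to 1.91 covers changes in both directions. Since the pair shares many 150-base windows, their summed level was also taken. It was 2.63 and 2.47 CPM in Ctrl and 1.49 and 1.70 CPM in Ell3 KD, lower in both Ell3 KD libraries. Oas1a made up 6.67% and 6.56% of the counts of the pair in Ctrl and 15.9% and 17.3% in Ell3 KD.

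**Figure D5:**
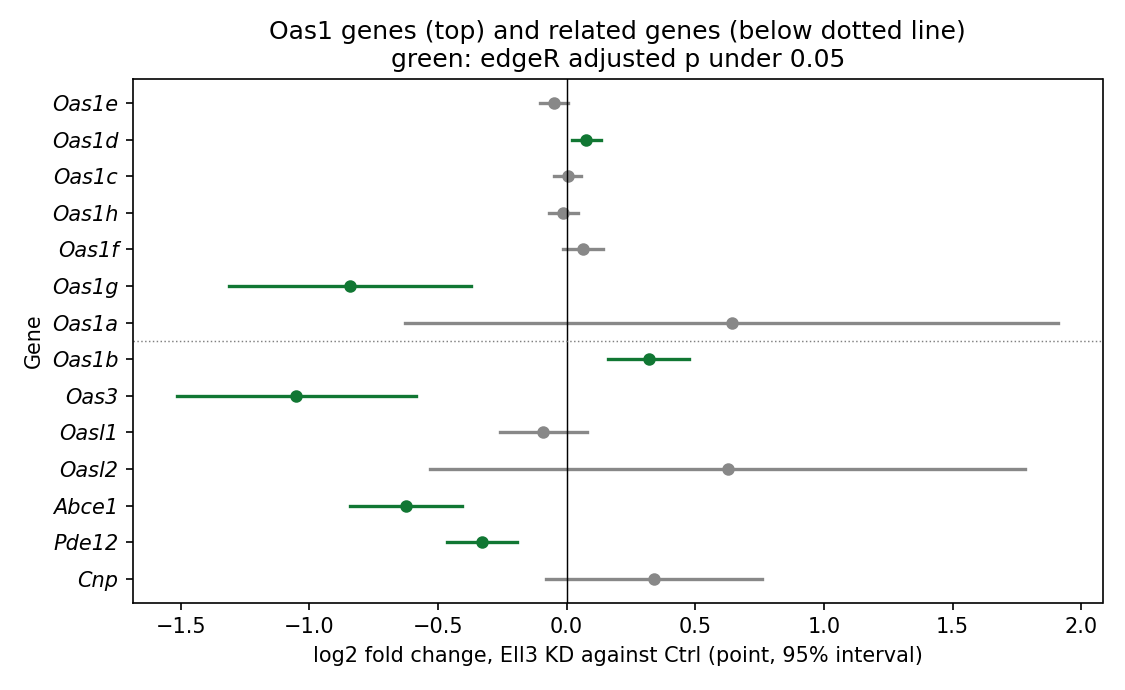
Log2 fold change of Ell3 KD against Ctrl (points) with 95% intervals (lines) for the 7 Oas1 genes and, below the dotted line, for other OAS genes and genes of oligoadenylate signalling; green marks an edgeR adjusted p under 0.05. The abundant Oas1 genes lie near 0 with narrow intervals, Oas1g and Oas3 lie below 0, and Oas1a and Oasl2 have wide intervals.

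Of 5 other OAS family genes, 4 were tested, and 1 rose and 1 fell (median log2 fold change 0.11). Oas1b, which in some strains protects against flaviviruses, had 14.9 and 14.8 CPM in Ctrl and 18.3 and 18.8 CPM in Ell3 KD. Its log2 fold change of 0.32 ± 0.08 was called (edgeR adjusted p = 0.00148), higher in both Ell3 KD libraries, while Oas1c, 120 bases away on the opposite strand, was at 1811 ± 15.3 and 1815 ± 0.158 CPM. Oas3, for a larger OAS protein, had 2.74 and 2.71 CPM in Ctrl and 1.16 and 1.48 CPM in Ell3 KD, and fell (log2 fold change -1.05 ± 0.23; edgeR adjusted p = 4.93e-04). Oasl1, a family member without synthetase activity, was at 15.7 ± 0.349 and 14.7 ± 0.775 CPM (edgeR adjusted p = 0.394). Oasl2 was at 0.244 ± 0.0877 and 0.381 ± 0.139 CPM (edgeR adjusted p = 0.393), and Oas2 had 1 count in each Ctrl library and 0 in each Ell3 KD library.

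Markers of immune cells moved in the same direction as Oas1g and Oas3. Of 9 immune and blood cell markers, 3 were tested and 2 fell, the macrophage genes Cd68 (log2 fold change -1.16) and Csf1r (-2.39), by edgeR at adjusted p = 2.18e-04 for Cd68 and adjusted p = 0.00179 for Csf1r. The summed level of all 9 was 3.83 and 3.87 CPM in Ctrl and 1.96 and 1.64 CPM in Ell3 KD, and Adgre1, Lyz2, Cd3e, Hbb-bs and Hba-a1 were at 0 counts in all libraries. Of 6 theca and stroma markers, Star and Acta2 were tested and neither was called (edgeR adjusted p = 0.173 and adjusted p = 0.0543, the latter with an unadjusted p of 0.0237), and the list summed to 2.45 and 2.55 CPM in Ctrl and 1.52 and 1.42 CPM in Ell3 KD. The part of such cells in the fall of Oas1g and Oas3 was not tested, and in pooled oocytes fewer cells of a type and less RNA per cell cannot be told apart.

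Of 3 genes of oligoadenylate signalling that were tested, 2 fell. Abce1, for a protein that recycles ribosomes, had 11.2 and 12.3 CPM in Ctrl and 7.11 and 8.18 CPM in Ell3 KD (log2 fold change -0.62 ± 0.11, edgeR adjusted p = 3.51e-05). Pde12, for a phosphodiesterase that degrades oligoadenylates, had 30.4 and 31.7 CPM in Ctrl and 26.2 and 23.2 CPM in Ell3 KD (-0.33 ± 0.07, edgeR adjusted p = 2.68e-04). Cnp, for a cyclic nucleotide phosphodiesterase, was not called (0.34 ± 0.20, edgeR adjusted p = 0.185).

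Many interferon-induced genes were undetected. Of 16 interferon-induced genes, 6 were tested, 1 rose and 1 fell (median -0.01), and Isg15, Ifit2, Ifit3, Mx2, Rsad2 and Ifi44 had no count in any library. Bst2, for the virus-tethering protein tetherin, went from 3.24 ± 0.225 to 7.26 ± 0.823 CPM, and Cmpk2, for a mitochondrial nucleotide kinase, from 29.4 ± 0.260 to 20.9 ± 0.0937 CPM (edgeR adjusted p = 2.78e-07 for Bst2, adjusted p = 9.78e-07 for Cmpk2). Of 12 genes of interferon signalling, 9 were tested and 4 fell (median -0.03), among them the kinase gene Jak1 (-0.11) and the transcription factor gene Stat2 (-0.38), while Irf1 stood at 222.0 ± 6.72 in Ctrl and 225.4 ± 0.839 CPM in Ell3 KD and was not called (edgeR adjusted p = 0.640). Of 12 genes of double-stranded RNA sensing, 11 were tested, 2 rose and 2 fell (median 0.10). Dicer1, for the nuclease that cuts double-stranded RNA into small RNAs, rose (log2 fold change 0.20 ± 0.03, edgeR adjusted p = 7.67e-06). Adar, for an RNA editing enzyme, had means of 91.6 ± 4.19 and 88.1 ± 4.04 CPM and was not called (edgeR adjusted p = 0.337). The adaptor gene Ticam1 fell, from 18 and 21 counts in Ctrl to 0 in each Ell3 KD library (edgeR adjusted p = 2.15e-05).

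Genes with a pattern most like that of Oas1e over the 4 libraries were Cinp, Kmt2d and Actr1a, with root mean square differences of 0.0014, 0.0029 and 0.0040 in log2 CPM centred on the gene's mean. For Oas1d they were Lyrm4, Lsm6 and Wdr20, at 0.0040, 0.0057 and 0.0062. Many genes were nearly as close: 1534 of the 8837 compared were within 0.05 of Oas1e and 1327 within 0.05 of Oas1d.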

How the data were processed

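Gene counts of 4 libraries (2 Ctrl, 2 Ell3 KD) were used as the authors deposited them: raw counts, whole numbers per gene symbol. The submitters' processing notes name mm10, HISAT2 2.2.1.0, featureCounts and FastQC 0.11.5. For the counting, neither annotation, strand setting nor the treatment of reads that fit several places is given in the sources used here. Per the labels' protocols, cDNA was amplified for 16 cycles and read as 150-bp pairs.

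Groups came from the sample titles. All genes were fitted in R 4.3.3 with edgeR 4.0.16 (filterByExpr, TMM, quasi-likelihood test, two-sided, no covariates), with Benjamini-Hochberg adjustment over 17879 genes and calls at an adjusted p under 0.05. The standard error was taken as the size of the log2 change over the root of the F statistic; 95% intervals use 26.3 degrees of freedom. Libraries of a group differed by more than counting noise (chi-square per degree of freedom 4.08 and 4.17). Alternatives were RLE scaling, no low-count filter, DESeq2 1.42.0, limma-voom (limma 3.58.1), a replicate block, an assumed coefficient of variation of 0.2, and leaving out each library. The edgeR, DESeq2 and limma-voom fits were tested on simulated data with 200 genes changed. The simulation took over the spread between libraries that edgeR fitted here. It therefore cannot show whether that spread is too low for 2 libraries per group.

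Lengths, coordinates and transcripts came from GENCODE M21; 96.8% of genes tested matched a single gene. Identities came from Biopython 1.88 global alignments over aligned bases. The members and lists were chosen with earlier results of these data known. The genes named were the members, Ell3, all genes of the other-OAS and oligoadenylate lists, genes within 150 kb (predicted ones counted, not described), from every other list the 2 genes with the highest mean CPM and at most 2 called genes (by smallest p), of which the text gives a part (some are not reported here), and the 3 nearest patterns of the member with the highest level per length and of that with the largest change at 5 CPM or more.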

Additional observations from a re-analysis of the deposited data

How the results depend on the processing

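The direction of Oas1a, Oas1d, Oas1e, Oas1f and Oas1g was the same in all 10 alternatives. The number of Oas1 genes called higher was 1 with RLE scaling, without the low-count filter, with DESeq2, with limma-voom and with the replicate block. With the assumed coefficient of variation of 0.2 edgeR called 0 higher and 0 lower, with 0 and 1 at an unadjusted p under 0.05. Called lower were 2 with limma-voom and 2 with the replicate block, Oas1e being the addition (adjusted p = 0.0323 and adjusted p = 0.0354). Leaving out each library gave 0 to 1 higher and 1 to 2 lower by edgeR. The 0 higher came without Ctrl replicate 2 (0 at an unadjusted p under 0.05) and without Ell3 KD replicate 1 (1 at that level). Leaving out each library moved Oas1c between -0.0079 (without Ctrl replicate 2, reversed) and 0.0103, and Oas1h between -0.0445 and 0.0138 (without Ctrl replicate 1, reversed), in log2. The log2 fold change of Oas1g ranged from -0.92 to -0.75 over the alternatives (adjusted p from 0.00244 to 0.0741) and that of Oas1d from 0.03 to 0.12 (adjusted p from 4.40e-04 to 0.980). The replicate numbers give no known pairing: deviations of libraries with the same number correlated at 0.0393 over 9704 genes at 5 CPM or more. Oas1a rests on 8 to 21 counts per library. The cause of the shifts above was not tested.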
